A study of Mus musculus with 2 samples.

Results

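The genes described here are 35 genes of alveolar macrophages and of the response of macrophages to the cytokine IL-4. They were found by symbol in a normalised count table of 38293 genes, and each of the 35 had 1 row. Of these, 23 are alveolar macrophage genes and 12 are IL-4 target genes. All 35 passed the minimum mean of 20 normalised reads that 11795 genes of the table reached, and the least sequenced member, Epcam, had 107 reads in 1 library. The cells were lung resident macrophages sorted as CD45+, CD11c high, Siglec-F+ and CD11b low cells from 8-week-old C57BL/6 mice, killed 7 days after 625 larvae of the roundworm Nippostrongylus brasiliensis had been injected under the skin. There was 1 library from Axl-/-Mertk-/- mice, which lack the receptor kinases Axl and Mertk, and 1 from wild-type (WT) mice. Both groups were infected, uninfected mice were not analysed here, and the labels do not say how many mice a library holds or which parts of Axl and Mertk were deleted. The comparison asks how macrophages without Axl and Mertk, members of the larger set of receptors for apoptotic cells, differ during a type 2 immune response.

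Alveolar macrophages live in the air spaces, where they clear surfactant, debris and dying cells. Their identity is set by the cytokine GM-CSF and the lipid-sensing nuclear receptor PPAR-gamma, and in mice it includes genes better known from epithelium, such as keratins and adhesion molecules. IL-4 and IL-13 act through the receptor chain IL-4R-alpha and the transcription factor STAT6, and the genes they switch on in macrophages serve repair, fusion, lipid use and restraint of T cells.

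Gene totals summed to 15519680 reads in the Axl-/-Mertk-/- library and to 15282882 in the WT library. With 1 library per genotype there is no spread between animals, no test was made, and each interval below is an exact 95% interval (Clopper-Pearson) of a ratio of reads, which covers counting error only. Axl was at 15.5% of WT (15.0% to 16.1%) and Mertk at 43.8% (41.8% to 46.0%), in gene totals that include any part left in place. The sort markers were abundant in both libraries. Itgax, which encodes CD11c, had 39176 normalised reads in Axl-/-Mertk-/- and 40087 in WT, and Siglecf had 2347 in Axl-/-Mertk-/- and 2566 in WT. Itgam, which encodes the CD11b that the sort kept low, was also read, with 4436 normalised reads in Axl-/-Mertk-/- and 4488 in WT. The scavenger receptor gene Marco, a marker of alveolar macrophages, had 8630.1 in Axl-/-Mertk-/- and 10090.4 in WT.

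Most of the 35 genes were slightly lower in Axl-/-Mertk-/- than in WT. A ratio below 1, of any size, was found for 29 of the 35 (82.9%), against 51.2% of all measured genes and 52% of those with a mean of 500 normalised reads or more. The median log2 ratio, taken after adding 10 to each normalised count, was -0.13 over the 23 alveolar macrophage genes and -0.09 over the 12 IL-4 target genes, whereas over all measured genes it was -0.0047. The counting interval lay below 1 for 20 of the 35 (57.1%), against 11.4% of all measured genes, and above 1 for 3 (8.57%), against 10.1%. Deeply read genes pass the interval more easily. Of the members 31 had a mean of 500 or more, and among all genes that abundant the interval lay below 1 for 16.3% and above 1 for 13.2%. The members were chosen with earlier results of these data known, so their shares are not independent of the data and were not tested. These shares describe 2 libraries, in which fewer alveolar macrophages among the sorted cells and less RNA of these genes per cell cannot be told apart.

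The differences were small. After 10 was added to each value, Rufy4, Kcnn3 and Car4 alone among the members were at least 20% lower in Axl-/-Mertk-/- (3 of 35, 8.57%), against 5.87% of all measured genes and 1.62% of those in the abundant class (mean of 500 or more). A member at least 25% higher, which is the same distance on a log scale, was not found (0 of 35), against 6.01% of all measured genes and 1.17% in the abundant class. The other 32 members lay between these limits. Among the alveolar macrophage genes 20 of 23 had a ratio below 1 and the interval lay below 1 for 12, and among the IL-4 target genes these counts were 9 of 12 and 8. Over the 35 genes the Spearman correlation between log2 ratio and level per kilobase was -0.07, given as a description since all points share both libraries.

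**Figure D1:**
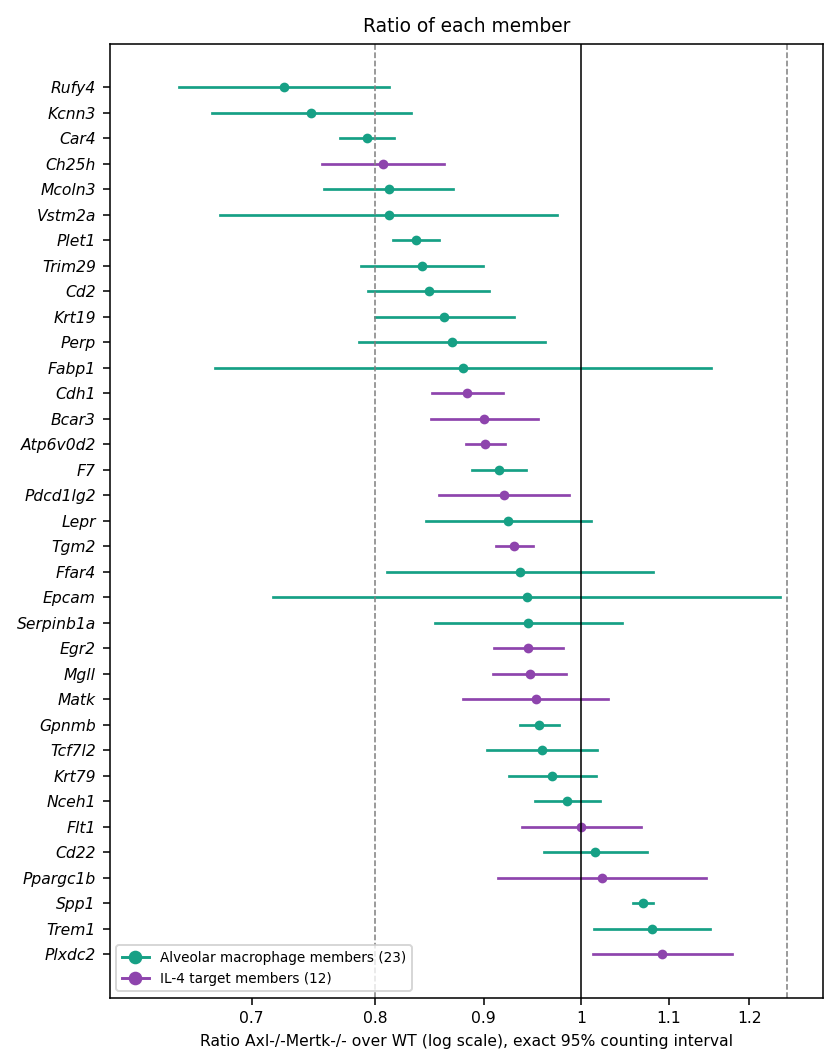
Ratio of normalised reads, Axl-/-Mertk-/- over WT (horizontal axis, log scale), for each of the 35 genes with its exact 95% counting interval, in order of the ratio. Green marks the 23 alveolar macrophage genes and purple the 12 IL-4 target genes, the solid line is a ratio of 1 and the dashed lines mark 20% lower and 25% higher. The points run between 0.725 for Rufy4 and 1.09 for Plxdc2, and 29 lie left of the solid line.

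**Figure D2:**
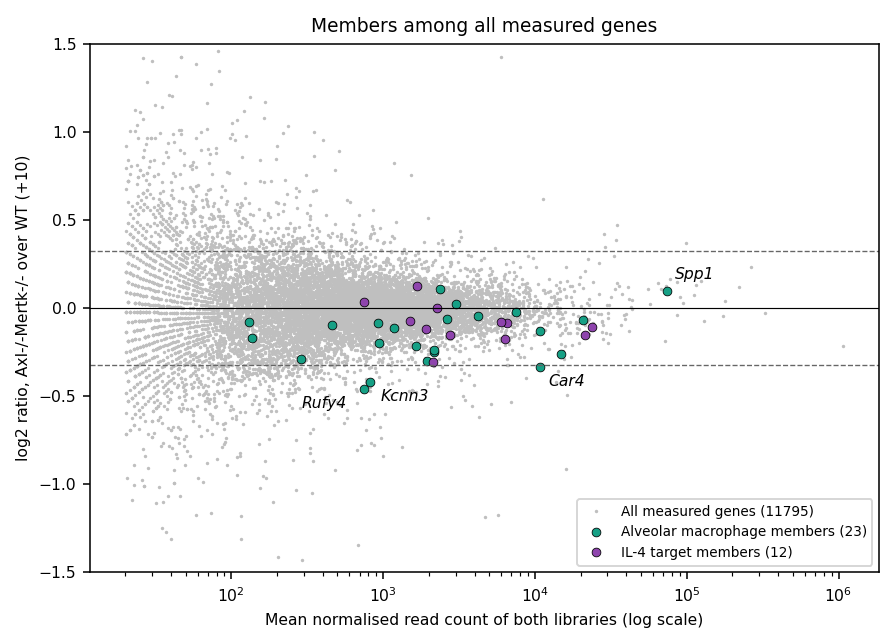
Log2 ratio, Axl-/-Mertk-/- over WT after adding 10 (vertical axis), against the mean normalised read count of both libraries (horizontal axis, log scale) for 11795 measured genes (grey), with the 35 members coloured and the limits of 20% lower and 25% higher dashed. The axis stops at a log2 ratio of 1.5 in each direction, which leaves out 15 genes. The members lie among the more abundant genes and mostly just under 0.

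Levels between genes were compared per kilobase of annotated exons. By this measure Spp1 was the highest member by far, at 46429 normalised reads per kilobase in Axl-/-Mertk-/- and 43412 in WT, and 18th by mean level among 11703 measured genes with a known length. Atp6v0d2 had 7448 per kilobase in Axl-/-Mertk-/- and 8261 in WT, and Plet1 had 6916 in Axl-/-Mertk-/- and 8269 in WT. F7, Car4, Tgm2 and Gpnmb followed by mean level, with Gpnmb at 3109 per kilobase in Axl-/-Mertk-/- and 3252 in WT. The lowest members were Vstm2a, with 54.5 per kilobase in Axl-/-Mertk-/- and 67.1 in WT, and Epcam, with 57.5 in Axl-/-Mertk-/- and 61.0 in WT.

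**Figure D3:**
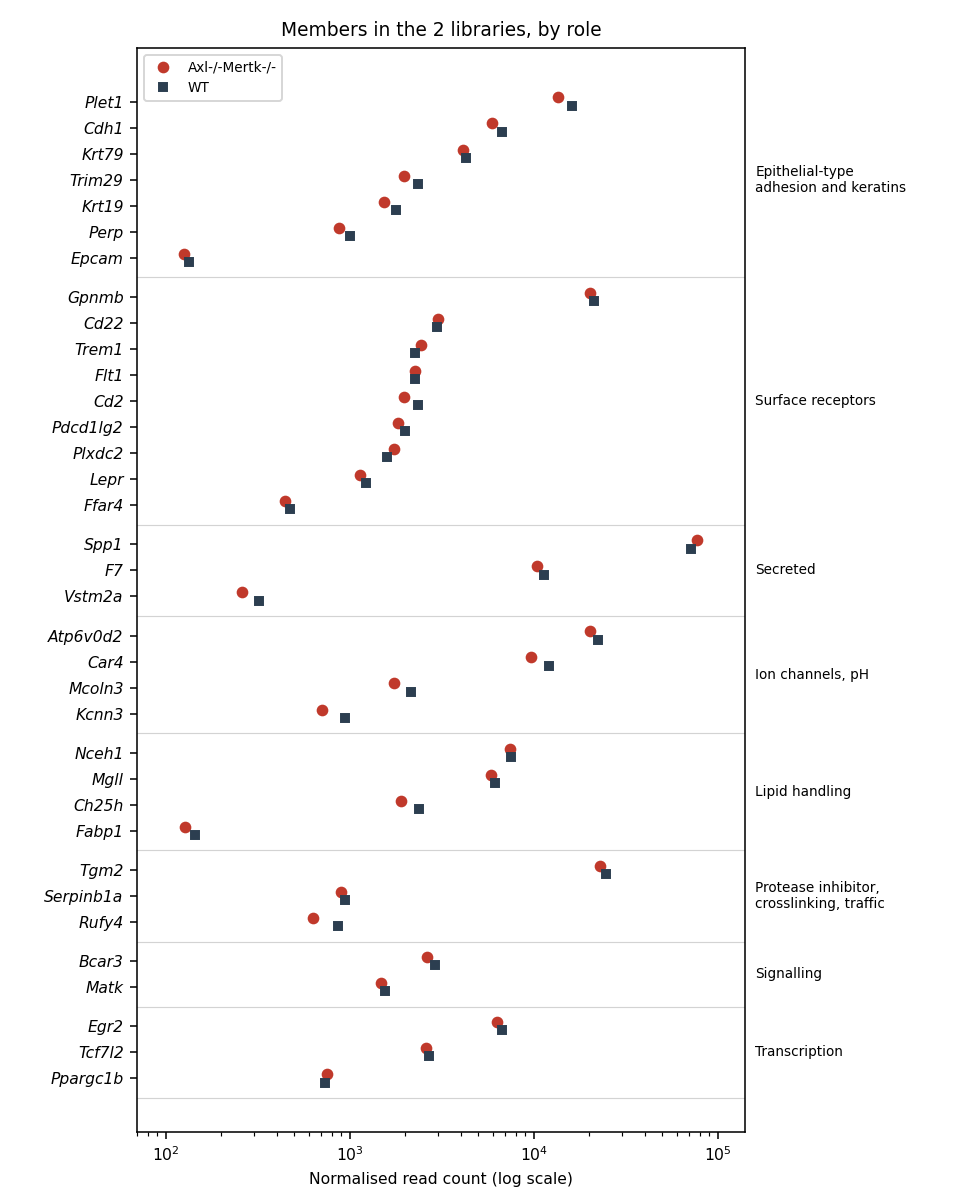
Normalised read count (horizontal axis, log scale) of each of the 35 genes in the Axl-/-Mertk-/- library (red circles) and the WT library (dark squares), grouped by role. Each point is 1 library, so there are no error bars. All 7 epithelial-type genes and all 4 genes of ion transport and pH have the red circle left of the dark square, while Spp1, Trem1 and Plxdc2 have it to the right.

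Epithelial-type genes, such as keratins and adhesion molecules, were lower in Axl-/-Mertk-/- for all 7 members, with a median log2 ratio of -0.20. A ratio below 1 was found for 51.2% of all measured genes and 52% of the abundant class. The interval lay below 1 for 5 of the 7, against 11.4% of all measured genes and 16.3% of the abundant class. Plet1 (GRCm38 chromosome 9, 50494525 to 50505482), which encodes a membrane-anchored surface protein, had 13466 normalised reads in Axl-/-Mertk-/- and 16099 in WT, a ratio of 0.836 (0.816 to 0.858). Trim29 (chromosome 9, 43310848 to 43336115) had 1967 in Axl-/-Mertk-/- and 2335 in WT, a ratio of 0.842 (0.788 to 0.900). Its product restrains innate activation in alveolar macrophages. Krt19 (chromosome 11, 100140810 to 100148665), a keratin of simple epithelium, had 1536 in Axl-/-Mertk-/- and 1781 in WT, a ratio of 0.862 (0.800 to 0.929). Perp (chromosome 10, 18845020 to 18857073), a protein of desmosomes, had 870.0 in Axl-/-Mertk-/- and 1000.5 in WT, a ratio of 0.870 (0.786 to 0.961). Cdh1 (chromosome 8, 106603351 to 106670246) encodes E-cadherin, an adhesion molecule that IL-4 induces in macrophages through STAT6. It had 5916 normalised reads in Axl-/-Mertk-/- and 6692 in WT, a ratio of 0.884 (0.851 to 0.919). The remaining members of this group had intervals that include 1. The second keratin, Krt79 (chromosome 15, 101929332 to 101940324), had 4128 in Axl-/-Mertk-/- and 4259 in WT, a ratio of 0.969 (0.925 to 1.02). Epcam (chromosome 17, 87635979 to 87651129), an epithelial adhesion molecule, had only 107 reads in Axl-/-Mertk-/- and 111 in WT, and its ratio of 0.943 is known only to within 0.716 and 1.24.

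Epithelial RNA was present at low levels in both libraries and its lists did not all lie on the same side. Airway epithelial markers summed to 4267 normalised reads in Axl-/-Mertk-/- and 5098 in WT, a ratio of 0.837 (0.801 to 0.875). Of 9 measured markers 7 were lower, but the interval lay below 1 for only 3. Scgb1a1 of club cells made up most of this sum, at 2432 in Axl-/-Mertk-/- and 2964 in WT. The keratin genes Krt8 and Krt18 of the same list had 24.8 and 15.3 normalised reads in Axl-/-Mertk-/- and 41.0 and 13.3 in WT. Markers of alveolar type II cells summed to 3704 in Axl-/-Mertk-/- and 3249 in WT, a ratio of 1.14 (1.08 to 1.20). Of 8 measured markers 7 were higher, but the interval lay above 1 for only 3. Those of type I cells summed to 4045 in Axl-/-Mertk-/- and 3894 in WT, with 4 of 5 higher. The ratio of that sum was 1.04, and its interval (0.990 to 1.09) includes 1. For 3 of the 5 the interval lay above 1. Hopx had 390 in Axl-/-Mertk-/- and 268 in WT, a ratio of 1.45 (1.22 to 1.73). Ager and Clic5, with ratios of 1.68 and 1.75, had only 56.7 and 50.8 in Axl-/-Mertk-/- and 33.8 and 29.0 in WT. Abca3 and Napsa made up most of the type II sum, and Cav1 and Pdpn most of the type I sum. Sftpc, which defines type II cells, had 157 normalised reads in Axl-/-Mertk-/- and 151 in WT, and no marker of these 3 lists was at 0 in both libraries. The sort took CD45+ cells, a gate meant to remove epithelial cells, and the part of epithelial RNA in the values of the 7 members was not tested.

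Genes of ion transport and pH had the lowest median of the role groups, a log2 ratio of -0.32. All 4 were lower, and the interval lay below 1 for each. Over all measured genes 51.2% had a ratio below 1 and 11.4% an interval below 1, and in the abundant class 52% and 16.3%. Kcnn3 (chromosome 3, 89520164 to 89675132), a calcium-activated potassium channel, had 705 normalised reads in Axl-/-Mertk-/- and 944 in WT, a ratio of 0.747 (0.670 to 0.832). Car4 (chromosome 11, 84957786 to 84966044) encodes carbonic anhydrase IV, a surface enzyme that marks alveolar macrophages and also lung capillaries. It had 9622 in Axl-/-Mertk-/- and 12131 in WT, a ratio of 0.793 (0.770 to 0.817). Its interval is narrow, because 8151 reads in Axl-/-Mertk-/- and 10052 in WT stand behind it, but Car4 passes the limit of 20% by little, and under median-of-ratios factors from these 2 libraries its ratio is 0.802. Mcoln3 (chromosome 3, 146117450 to 146141806), a cation channel of endosomes and lysosomes, had 1741 in Axl-/-Mertk-/- and 2145 in WT, a ratio of 0.812 (0.757 to 0.870). Atp6v0d2 (chromosome 4, 19876841 to 19922605) encodes a subunit of the proton pump that acidifies lysosomes, and is an IL-4 target of macrophages. It had 20228 in Axl-/-Mertk-/- and 22438 in WT, a ratio of 0.902 (0.883 to 0.920).

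Endothelial markers lay the other way from Car4. All 11 measured of 12 were higher in Axl-/-Mertk-/-, with sums of 1987 normalised reads in Axl-/-Mertk-/- and 1336 in WT, a ratio of 1.49 (1.38 to 1.61). The junction gene Cldn5 had 72.0 in Axl-/-Mertk-/- and 20.5 in WT, and the most abundant marker, Pecam1, which leukocytes also express, had 570.1 in Axl-/-Mertk-/- and 507 in WT. The VEGF receptor gene Flt1 (chromosome 5, 147561604 to 147726011), the member best known from endothelium and also an IL-4 target of macrophages, had 2275 in Axl-/-Mertk-/- and 2274 in WT, a ratio of 1.0004 (0.938 to 1.07). The CD45+ gate is meant to remove endothelial cells too, and the part of endothelial RNA in the values of Flt1 and Car4 was not tested.

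Surface receptors were the group with the most even split. Of 9 members 5 had a ratio below 1 and 4 above, near the 51.2% below 1 of all measured genes, with a median log2 ratio of -0.06. Cd2 (chromosome 3, 101275899 to 101287939), an adhesion receptor better known from T cells, was the lowest of them, with 1979.6 normalised reads in Axl-/-Mertk-/- and 2335 in WT, a ratio of 0.848 (0.794 to 0.905). Pdcd1lg2 (chromosome 19, 29410919 to 29471161) encodes PD-L2, an IL-4-induced ligand that restrains T cells. It had 1826 in Axl-/-Mertk-/- and 1985 in WT, a ratio of 0.920 (0.858 to 0.987). Gpnmb (chromosome 6, 49036546 to 49070929), a glycoprotein of lipid-laden macrophages, had 20250.2 in Axl-/-Mertk-/- and 21184 in WT, a ratio of 0.956 (0.936 to 0.976). Each of these intervals lies below 1, and those of Pdcd1lg2 and Gpnmb end within a few percent of it. The receptors of metabolic signals had intervals that include 1. Lepr, the leptin receptor (chromosome 4, 101717404 to 101815352), had 1137 in Axl-/-Mertk-/- and 1229.8 in WT, a ratio of 0.924 (0.846 to 1.01). Ffar4, a receptor of long-chain fatty acids (chromosome 19, 38097071 to 38114263), had 444 in Axl-/-Mertk-/- and 474 in WT, a ratio of 0.936 (0.810 to 1.08).

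The receptors on the other side were Trem1, Plxdc2, Cd22 and, at a ratio of nearly 1, Flt1. Trem1 (chromosome 17, 48232768 to 48246924), which amplifies inflammatory signals in myeloid cells, had 2451 normalised reads in Axl-/-Mertk-/- and 2269 in WT, a ratio of 1.08 (1.01 to 1.15). Plxdc2 (chromosome 2, 16356304 to 16755839), a transmembrane protein, had the highest ratio of all 35 genes, with 1741 in Axl-/-Mertk-/- and 1594 in WT, a ratio of 1.09 (1.01 to 1.18). Both intervals lie above 1 by little. Cd22 (chromosome 7, 30865402 to 30880342), an inhibitory sialic acid receptor better known from B cells, had 3030.1 in Axl-/-Mertk-/- and 2983 in WT, a ratio of 1.02 (0.961 to 1.07). It is the only member within 20 Mb of a deleted gene, 5.08 Mb from Axl. Plxdc2 shares chromosome 2 with Mertk but lies 112 Mb from it.

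Cd2, Cd22 and Trem1 are best known from lymphocytes and other blood cells, whose markers were also read in both libraries. Markers of T and NK cells summed to 394 normalised reads in Axl-/-Mertk-/- and 301 in WT, a ratio of 1.31 (1.11 to 1.55). All 5 of 5 measured markers were higher, but the interval lay above 1 for only 1. Cd3e had 35.4 in Axl-/-Mertk-/- and 33.8 in WT. B cell markers summed to 890.0 in Axl-/-Mertk-/- and 959 in WT, a ratio of 0.928 whose interval (0.839 to 1.03) includes 1. Of these 6 of 6 measured markers were lower, but the interval lay below 1 for 0. Ms4a1 had 81.4 in Axl-/-Mertk-/- and 84.5 in WT. Neutrophil markers summed to 3245 in Axl-/-Mertk-/- and 2860.2 in WT, a ratio of 1.13 (1.07 to 1.20), with 5 of 8 measured markers higher. The markers of this list were mixed, with an interval above 1 for 4 and below 1 for 2. S100a9 had 264 in Axl-/-Mertk-/- and 135 in WT, and the defining marker Ly6g had 1 read in Axl-/-Mertk-/- and 0 in WT. The ratio of Trem1 and that of the neutrophil list were both above 1, and the part of T, NK and B cells and of neutrophils in the values of Cd2, Cd22 and Trem1 was not tested. Dendritic cell markers, from cells that share surface genes with alveolar macrophages, were higher for 6 of 7, but the interval lay above 1 for only 2. Their sums were 1887 in Axl-/-Mertk-/- and 1668 in WT, a ratio of 1.13 (1.05 to 1.22). Eosinophil markers summed to only 76.7 in Axl-/-Mertk-/- and 82.1 in WT, a ratio of 0.935 (0.655 to 1.33), with Prg3 at 0 in both libraries.

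Among the secreted products the most abundant member went against the rest. Spp1 (chromosome 5, 104435118 to 104441050) encodes osteopontin, a matrix protein and cytokine of macrophages in repair and fibrosis. It had 76515 normalised reads in Axl-/-Mertk-/- and 71543 in WT, a ratio of 1.07 (1.06 to 1.08), and made up 32.4% of all reads of the 35 genes in Axl-/-Mertk-/- and 29.0% in WT. F7 (chromosome 8, 13026034 to 13035809), coagulation factor VII, had 10361 in Axl-/-Mertk-/- and 11324 in WT, a ratio of 0.915 (0.889 to 0.942). Vstm2a (chromosome 11, 16257724 to 16427310), a secreted immunoglobulin-domain protein, had 259.7 in Axl-/-Mertk-/- and 319.8 in WT, a ratio of 0.812 (0.676 to 0.975). The summed reads of the 23 alveolar macrophage genes had a ratio of 0.973 (0.966 to 0.981) with Spp1 and 0.901 (0.892 to 0.910) without it, and those of the 12 IL-4 target genes one of 0.922 (0.912 to 0.932).

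Spp1 is also a gene of monocyte-derived macrophages, whose markers lay on the same side. Of 14 markers of monocytes and interstitial macrophages 11 were higher in Axl-/-Mertk-/-, with sums of 37324 normalised reads in Axl-/-Mertk-/- and 33224 in WT, a ratio of 1.12 (1.11 to 1.14). Ccr2, the chemokine receptor of inflammatory monocytes, had 6120.5 in Axl-/-Mertk-/- and 4823 in WT, and the most abundant marker, the complement gene C1qb, had 8962 in Axl-/-Mertk-/- and 8149 in WT. Exceptions were Folr2, Cd163 and Lyve1, of which Folr2 had 111 in Axl-/-Mertk-/- and 226 in WT. No marker of this list was at 0. Every value of the 35 genes was thus read in libraries that also differed in these markers, and the part of this in the values was not tested.

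**Figure D4:**
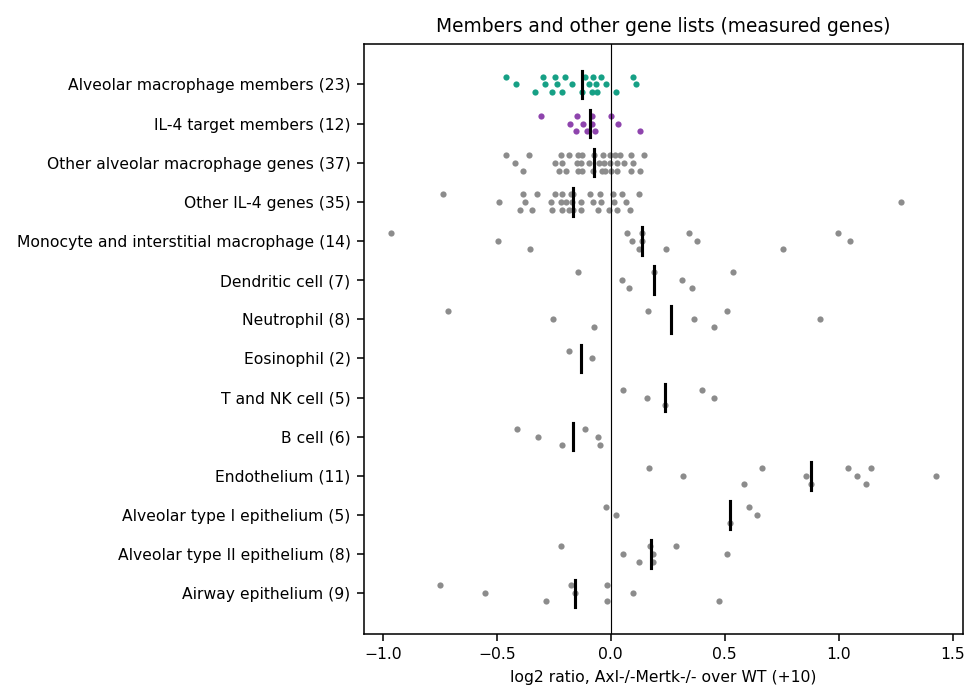
Log2 ratio, Axl-/-Mertk-/- over WT after adding 10 (horizontal axis), of each measured gene (points) in the 2 groups of members, in other genes of the same programs and in marker lists of other cells, with the number of measured genes in brackets and the median as a black bar. The medians of both member groups and of the other genes of their programs lie below 0. Those of endothelium (0.88), alveolar type I (0.52) and type II (0.18) epithelium and neutrophils (0.26) lie above 0. So do those of T and NK cells (0.24), dendritic cells (0.19) and monocyte and interstitial macrophage markers (0.14). Those of airway epithelium (-0.16), B cells (-0.16) and eosinophils (-0.13) lie below 0.

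Genes of lipid handling were lower for all 4 members, against 51.2% of all measured genes, with a median log2 ratio of -0.13. The interval lay below 1 for 2 of the 4, against 11.4% of all measured genes and 16.3% of the abundant class. Ch25h (chromosome 19, 34473778 to 34475164) makes 25-hydroxycholesterol and is induced in macrophages by IL-4 and by interferons. It had 1909 normalised reads in Axl-/-Mertk-/- and 2365 in WT, a ratio of 0.807 (0.755 to 0.862), the lowest of the 12 IL-4 target genes. Mgll (chromosome 6, 88724412 to 88828360), the lipase that degrades monoacylglycerols, had 5828 in Axl-/-Mertk-/- and 6162 in WT, a ratio of 0.946 (0.909 to 0.984). The intervals of the next pair include 1. Nceh1 (chromosome 3, 27182965 to 27284608), which hydrolyses cholesterol esters, had 7438 in Axl-/-Mertk-/- and 7550.0 in WT, a ratio of 0.985 (0.951 to 1.02). Fabp1 (chromosome 6, 71199827 to 71205023), a fatty acid binding protein best known from liver, had 127 in Axl-/-Mertk-/- and 145 in WT, a ratio of 0.880 (0.672 to 1.15).

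The gene with the lowest ratio of all 35 was Rufy4 (chromosome 1, 74125541 to 74148223), which encodes a protein of autophagy and lysosome traffic. It had 628 normalised reads in Axl-/-Mertk-/- and 867 in WT, a ratio of 0.725 (0.647 to 0.812). Tgm2 (chromosome 2, 158116402 to 158146436), the crosslinking enzyme transglutaminase 2 and a conserved IL-4 target of macrophages, had 22853 in Axl-/-Mertk-/- and 24564 in WT, a ratio of 0.930 (0.912 to 0.949). It lies 29.3 Mb from Mertk. Serpinb1a (chromosome 13, 32842092 to 32851185), an inhibitor of neutrophil proteases, had 892 in Axl-/-Mertk-/- and 945 in WT, a ratio of 0.944 (0.853 to 1.04), and near copies make its reads uncertain. Its transcripts share up to 91.2% identity over 578 bases with Serpinb1b, which had 6 reads in Axl-/-Mertk-/- and 2 in WT.

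The signalling and transcription genes all lay within 10% of WT. Bcar3 (chromosome 3, 122294136 to 122530191), an adaptor of integrin and kinase signalling, had 2624 normalised reads in Axl-/-Mertk-/- and 2915 in WT, a ratio of 0.900 (0.850 to 0.954). Matk (chromosome 10, 81252935 to 81263365), a kinase that inhibits the Src family, had 1472 in Axl-/-Mertk-/- and 1546 in WT, a ratio of 0.952 (0.880 to 1.03). Egr2 (chromosome 10, 67535475 to 67542188), a transcription factor that IL-4 induces early, had 6325 in Axl-/-Mertk-/- and 6696 in WT, a ratio of 0.945 (0.910 to 0.981). Of these 3 the interval of Matk includes 1. Tcf7l2 (chromosome 19, 55741820 to 55933654), a transcription factor of the Wnt pathway, had 2593 in Axl-/-Mertk-/- and 2706 in WT, a ratio of 0.958 (0.903 to 1.02). Ppargc1b (chromosome 18, 61298136 to 61400431), a coactivator that drives mitochondrial metabolism under IL-4, had 752 in Axl-/-Mertk-/- and 735 in WT, a ratio of 1.02 (0.914 to 1.15).

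Other genes of both programs had the same side in the majority. Of 37 measured alveolar macrophage genes outside the members 26 had a ratio below 1 (70.3%), with a median log2 ratio of -0.07. The interval lay below 1 for 21 (56.8%) and above 1 for 6 (16.2%), and 4 (10.8%) were at least 20% lower with 10 added and 0 at least 25% higher. The lipid droplet gene Cidec had 984 normalised reads in Axl-/-Mertk-/- and 1265 in WT, a ratio of 0.778 (0.710 to 0.853), and the others past that limit were Slc39a2, Ctsk and Fabp4, with ratios of 0.725, 0.748 and 0.764. Of 35 IL-4 genes outside the members 27 had a ratio below 1 (77.1%), with a median log2 ratio of -0.17. The interval lay below 1 for 22 (62.9%) and above 1 for 3 (8.57%), and 7 (20%) were at least 20% lower and 1 (2.86%) at least 25% higher. The eosinophil chemokine gene Ccl24 had 7483 in Axl-/-Mertk-/- and 9867 in WT, a ratio of 0.758 (0.734 to 0.784), and the cytokine receptor gene Il31ra had 242 in Axl-/-Mertk-/- and 319 in WT, a ratio of 0.760 (0.630 to 0.915). Alox15, a lipoxygenase that IL-4 induces, had a ratio of 0.597, Retnla one of 0.711 and Emp2, the gene that was higher, one of 2.78 at a low level, with 107 in Axl-/-Mertk-/- and 38.6 in WT. Over all measured genes 51.2% had a ratio below 1, and the interval lay below 1 for 11.4% and above 1 for 10.1%. At least 20% lower were 5.87%, and at least 25% higher 6.01%. In the abundant class these shares were 52%, 16.3%, 13.2%, 1.62% and 1.17%. The lists share 6 genes, so these counts are not independent of each other. Both lists were also chosen with earlier results of these data known.

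Promoter sequence, 250 bases before the RefSeq start (GRCm38.p6), was available for 25 of the 35 genes in 35 entries, as some genes have several starts. It was searched on both strands for TTCNNNNGAA, the spacing that STAT6 prefers, for GAGGAAGT, a core of PU.1, the factor of the myeloid lineage, for CACGTG, the E-box that the lysosomal regulators MITF and TFEB bind, and for GCGNGGGCG, bound by EGR factors. The STAT6 letters were found in 1 of the 35 member entries, that of Pdcd1lg2, and in 5.85% of all 32851 promoters. The PU.1 core was found in 4 of the 35 entries, those of Ffar4, Mcoln3, Nceh1 and Spp1, and in 2.44% of all promoters. The E-box was found in 4 of the 35 entries, of Bcar3, Egr2, Mgll and Nceh1 (6.02% of all promoters). The EGR letters were found in 3 of the 35, of Flt1, Mgll and Tcf7l2 (4.70% of all promoters). A match describes letters and not a bound site. Shown are the 3 members that were at least 20% lower, none of which held any of these letters, and 3 with a match in capitals: Mcoln3, the next lowest channel gene, Spp1, the most abundant member, and Pdcd1lg2.
Rufy4 (chr1:74125291-74125540, plus strand): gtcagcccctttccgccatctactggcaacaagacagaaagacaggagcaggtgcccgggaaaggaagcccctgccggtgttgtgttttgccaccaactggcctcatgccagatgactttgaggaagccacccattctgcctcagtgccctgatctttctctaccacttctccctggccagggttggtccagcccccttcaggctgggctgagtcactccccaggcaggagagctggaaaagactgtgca
Kcnn3 (chr3:89519914-89520163, plus strand): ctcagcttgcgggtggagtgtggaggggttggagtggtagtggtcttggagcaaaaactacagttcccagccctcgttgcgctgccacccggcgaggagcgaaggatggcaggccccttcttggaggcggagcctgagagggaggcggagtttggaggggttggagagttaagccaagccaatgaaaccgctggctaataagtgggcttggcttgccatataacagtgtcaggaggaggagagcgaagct
Car4 (chr11:84957504-84957753, plus strand): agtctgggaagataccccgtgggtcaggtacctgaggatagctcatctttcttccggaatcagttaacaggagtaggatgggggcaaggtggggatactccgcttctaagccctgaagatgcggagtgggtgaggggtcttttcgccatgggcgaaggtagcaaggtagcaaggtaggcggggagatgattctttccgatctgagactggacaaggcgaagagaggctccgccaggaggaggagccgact
Mcoln3 (chr3:146121541-146121790, plus strand): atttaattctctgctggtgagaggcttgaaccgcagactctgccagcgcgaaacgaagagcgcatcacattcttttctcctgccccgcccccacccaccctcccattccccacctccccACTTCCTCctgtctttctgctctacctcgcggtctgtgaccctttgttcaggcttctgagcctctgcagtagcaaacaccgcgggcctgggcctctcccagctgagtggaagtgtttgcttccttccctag
Spp1 (chr5:104434861-104435110, plus strand): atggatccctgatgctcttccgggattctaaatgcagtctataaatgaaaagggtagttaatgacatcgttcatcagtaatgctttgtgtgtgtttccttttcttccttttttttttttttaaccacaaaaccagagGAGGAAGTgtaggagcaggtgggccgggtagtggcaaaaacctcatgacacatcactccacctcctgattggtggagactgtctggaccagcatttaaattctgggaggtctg
Pdcd1lg2 (chr19:29410669-29410918, plus strand): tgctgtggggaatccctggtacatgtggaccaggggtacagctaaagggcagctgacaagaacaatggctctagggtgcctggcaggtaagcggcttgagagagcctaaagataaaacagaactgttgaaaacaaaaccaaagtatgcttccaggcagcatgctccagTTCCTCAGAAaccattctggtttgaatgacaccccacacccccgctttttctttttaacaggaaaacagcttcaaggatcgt
The capitals of Mcoln3 run from base -131 to -124 before the start and read the PU.1 core on the opposite strand, those of Spp1 run from -113 to -106 on the strand shown, and the STAT6 letters of Pdcd1lg2 from -82 to -73. The ratios of the genes with the PU.1 core ran from 0.812 for Mcoln3 to 1.07 for Spp1, so they did not lie on 1 side.

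For 7 members another annotated gene shares part of the exons, and the strand used in counting is not known. Ch25h shares 159 exonic bases with the divergent transcript Gm26902, which had 64.9 normalised reads in Axl-/-Mertk-/- and 79.7 in WT. Tgm2 shares 370 with Rprd1b on the opposite strand, which had 649 in Axl-/-Mertk-/- and 669 in WT. Mgll shares 167 with the antisense gene Gm26588, at 18.9 in Axl-/-Mertk-/- and 27.8 in WT. These counts are small beside those of the members. The genes that overlap Bcar3, Cd22, Plet1 and Spp1 were not analysed here.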

How the data were processed

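Messenger RNA from sorted lung macrophages was sequenced in 1 Axl-/-Mertk-/- and 1 WT library. Per the labels' protocols, polyadenylated RNA was selected and libraries were made strand-specific with dUTP. The deposited values are a signal: counts per gene, scaled by the authors with a size factor for each library. The submitters' processing notes name TopHat2, DESeq2 and GRCm38. How reads were counted, with which strand setting, is not given in the sources used here. All non-zero values were whole multiples of the smallest (100% within a tolerance of 1e-06), so whole reads were recovered, with size factors of 0.847 for Axl-/-Mertk-/- and 0.829 for WT. Of 38293 genes, 1585 lack a symbol and stayed in all counts.

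With 1 library per group no count model can be fitted, so a rule of size stands in its place. Ratios with an interval are of normalised reads without a pseudocount, and log2 ratios and fold counts add 10. There were no molecular identifiers, reads may be copies of the same molecule, and intervals and floors therefore cover counting error only. A gene with 0 reads may have had a share worth as many as 3, equal to 3.54 normalised reads in Axl-/-Mertk-/- and 3.62 in WT. The intervals and the fold rule were run on simulated reads with counting error only. That model is the one the interval assumes, so the check says nothing about spread between animals or libraries. The text names all 35 members, the most changed genes of 2 further lists and the leading markers of other cells. Members and lists were chosen with earlier results of these data known. Some markers (Cd3e, Ms4a1, Ly6g, Sftpc, Krt8, Krt18, Abca3, Napsa, Ccr2, Cd163, Lyve1 and Prg3) and the genes that overlap members were picked with their values in view, and 1 marker is not reported here. Positions are from GENCODE vM21 (GRCm38). Copies were searched with BLAST+ 2.17.0 (at least 90% identity over 500 bases). Tools were Python 3.11.15, numpy 2.4.6, pandas 2.3.3, SciPy 1.17.1 and matplotlib 3.10.9.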

Additional observations from a re-analysis of the deposited data

How the results depend on the processing

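The settings tried were pseudocounts of 1 and 50, no minimum mean or one of 100, scaling by total reads or by median-of-ratios factors from these 2 libraries, leaving out Cd22 as the member within 20 Mb of a deleted gene, leaving out members that also mark other lung cells, and the mean in place of the median. The median log2 ratio of the 23 alveolar macrophage genes ran from -0.16 to -0.11 and that of the 12 IL-4 target genes from -0.09 to -0.08. Of the members 2 or 3 were at least 20% lower and 0 at least 25% higher under each of these settings that apply to a count, 2 with median-of-ratios factors, where Car4 no longer passed, and 2 without the members that mark other lung cells, among them Car4. The counts of ratios and of intervals below 1, whose alternatives were chosen after seeing the data, stayed at 29 and 20 in all settings but 1. Without the members that mark other lung cells they were 20 and 14, and intervals above 1 went from 3 to 2. Fewer genes remained there, so these counts are not shares and do not show whether the share changed. Rescaling moved no ratio of a member outside its counting interval. No paired analysis was possible because each genotype has 1 library. Depth limits Epcam, Fabp1 and Vstm2a, with 107 to 265 reads per library.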
